A study of Mus musculus with 2 samples.

Results

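The genes described here are the 80 mouse genes for proteins of the cytosolic ribosome whose symbols follow the Rpl or Rps pattern with a number and at most 1 further letter, together with Rplp0, Rplp1, Rplp2 and Rpsa. They were picked by symbol alone from the 31053 genes of the count table, and 31 code for proteins of the small subunit and 49 for proteins of the large subunit. Their messages were counted cell by cell in 2 droplet libraries from dorsal skin, 1 from wild-type (WT) mice and 1 from Chrna5 knockout (KO) mice, which lack the gene for the alpha 5 subunit of nicotinic acetylcholine receptors. Both groups were female, 6 to 8 weeks old, and had 62.5 mg of 5% imiquimod cream on the shaved back on 6 days. Imiquimod, a Toll-like receptor agonist, gives mouse skin a psoriasis-like inflammation, and the skin was taken on day 7. Per the labels, the knockout was crossed back to C57BL/6N, the strain of the digested skin is given as C57BL/6J, each group had 5 mice, and whether a library pools mice is not said. Skin was digested with collagenase, and cells that exclude a dead-cell dye were sorted. With 1 library per genotype no test between genotypes is possible, and every difference below is one between these 2 libraries. All intervals are 95% intervals of counting error only.

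The ribosome is built from ribosomal RNA and about equal amounts of each ribosomal protein, and the small subunit reads the message while the large subunit joins the amino acids. Ribosomal protein messages are short, very abundant and stable. Many of them begin with an unbroken run of pyrimidines, the 5′ TOP tract, through which the kinase mTOR and the protein LARP1 set how well they are translated. In epidermis, basal keratinocytes divide and make much ribosome, while cells that move up to the surface stop dividing and fill with keratins and envelope proteins.

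The start-site sequences of a few members show this tract and the members that depart from it. RefSeq start sites (build GRCm38.p6) were matched for 60 of the 80 genes. Each line gives 30 bases on the gene's strand, from 15 bases before the start site through it to 14 after, and capitals mark the hexamer CTTTCC. Rpl38 and Rpl35a are shown because both carry it and lie far apart in the comparison of the libraries, and Rps27 and Rps27l because they are near-copies of each other. Rpl39l, Rpl3l and Rpl10l are shown because they had the fewest UMIs of all members over all kept cells. For Rps27l and Rpl3l another start site is listed and not printed. In Rps27l the longest run of pyrimidines near that other start is 4 bases, against 9 near the printed one. The run of 9 ends before the start base, and so does the hexamer in Rpl39l.
Rpl38 (chr11:114668565-114668594, plus strand): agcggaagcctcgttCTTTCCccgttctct
Rpl35a (chr16:33056467-33056496, plus strand): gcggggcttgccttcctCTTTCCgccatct
Rps27 (chr3:90213634-90213663, minus strand): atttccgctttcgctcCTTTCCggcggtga
Rps27l (chr9:66946071-66946100, plus strand): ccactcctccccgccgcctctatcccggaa
Rpl39l (chr16:10170213-10170242, plus strand): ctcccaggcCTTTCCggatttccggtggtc
Rpl3l (chr17:24727811-24727840, plus strand): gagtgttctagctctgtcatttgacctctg
Rpl10l (chr12:66284387-66284416, minus strand): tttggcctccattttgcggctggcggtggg
Within 50 bases of the start on either side, CTTTCC stood on the gene's strand in 19 of the 60 members (31.7%) and in 5.43% of 27025 genes with such a window. On the other strand it stood in 1 member (1.67%) and in 5.12% of all genes. The hexamer CTCTTT, which can overlap CTTTCC, was on the gene's strand in 31.7% of members and 4.68% of all genes. A run of 8 or more pyrimidines that reached within 5 bases of the start was found in 23 of 60 members (38.3%) and in 11.0% of all genes. Such a run can lie wholly before the start. In the whole 300 bases, CCGGAAGT stood on either strand in 12 members (20%, against 4.31% of all genes) and AAGATGGC in 5 (8.33%, against 3.19%). These matches are letters in a window, and no binding was measured.

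The count table held 14557 WT and 10886 KO barcodes, each with at least 500 UMIs (unique molecular identifiers, 1 per captured message). Of these 13938 WT and 10233 KO cells were kept, with medians of 4603 and 6374 UMIs. Cells under 1000 UMIs were 16.6% of WT and 6.14% of KO cells, and 49 barcodes occurred in both libraries. Chrna5 itself had 12 UMIs in WT and 6 in KO over all kept cells, too few to check the genotype labels, and 3-prime UMIs can lie outside a deleted part. Cells were put into types by marker genes, which reached 54.6% of WT and 63.5% of KO cells. Cells without a type were shallower, with medians of 1645 and 3340.5 UMIs. Types with at least 30 cells in each library were described (13), and gene-level comparisons were made where each library held at least 200 cells: basal keratinocyte-like, suprabasal keratinocyte-like, fibroblast-like, and monocyte and macrophage-like cells. None of the 13 types had more markers of another type than of its own among its 10 leading genes. Of the suprabasal keratinocyte-like cells, 61.9% lay in clusters of that name, against 92.2% of basal keratinocyte-like, 97.7% of fibroblast-like and 92.9% of monocyte and macrophage-like cells. Lower values were found for pericyte and smooth muscle-like cells (55.3%), hair follicle-like keratinocytes (39.3%) and lymphatic endothelial-like cells (0%), for which no cluster took that name. Cluster 28, led by the lymphatic genes Ccl21a, Mmrn1 and Lyve1, was left unnamed. The vascular endothelial-like cells were led in part by the interferon-induced genes Iigp1, Rsad2 and Ifit1.

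Ribosomal protein messages were a large part of everything captured from this skin. Over all kept cells they held 36819432 UMIs, or 25.2% (25.22 to 25.24) of the WT library, and 26260415 UMIs, or 21.4% (21.43 to 21.45) of the KO library. The KO share was 0.850 times the WT share (0.849 to 0.850). The small subunit genes held 44.0% of member UMIs in WT and 44.4% in KO, and between 41.7% and 45.4% in every one of the 13 types and either library. Mitochondrial genes, a common sign of cell stress, took 2.30% of WT and 2.72% of KO UMIs, and the part of stress in the difference was not tested.

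Cell types differed more than genotypes. Basal keratinocyte-like cells had the highest share in both libraries, at 29.95% in WT (2260 cells) and 27.5% in KO (1302 cells). Sebaceous gland-like cells came next, at 27.5% and 24.0%. T-like cells stood at 26.1% and 21.2%, vascular endothelial-like cells at 25.9% and 22.2%, and suprabasal keratinocyte-like cells at 24.9% and 23.5%. Hair follicle-like keratinocytes had 24.8% and 21.3%, melanocyte-like cells 22.9% and 17.1%, mast-like cells 22.5% and 15.7%, and monocyte and macrophage-like cells 21.8% and 18.7%. At the lower end were pericyte and smooth muscle-like cells with 19.9% and 17.8%, lymphatic endothelial-like cells with 19.5% and 19.1%, and fibroblast-like cells with 16.1% and 13.2%. Dermal papilla-like cells, a mesenchymal type that steers hair growth, were lowest with 9.77% (58 cells) and 8.35% (153 cells). The highest share was 3.07 times the lowest in WT and 3.30 times in KO. The order of the 13 types was much alike in both libraries, with a rank correlation of 0.863 as a description. Types with a high share had a low level of the nuclear RNA Malat1 (rank correlation over 13 types -0.703 in WT and -0.918 in KO), and both are parts of the same total. Red-cell-like barcodes, led by globin messages, were set apart because KO held 11 of them. Their pooled share was 5.88% in WT (41 barcodes) and 11.8% in KO. The median share per barcode went the other way, at 9.28% in WT and 1.35% in KO.

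**Figure D1:**
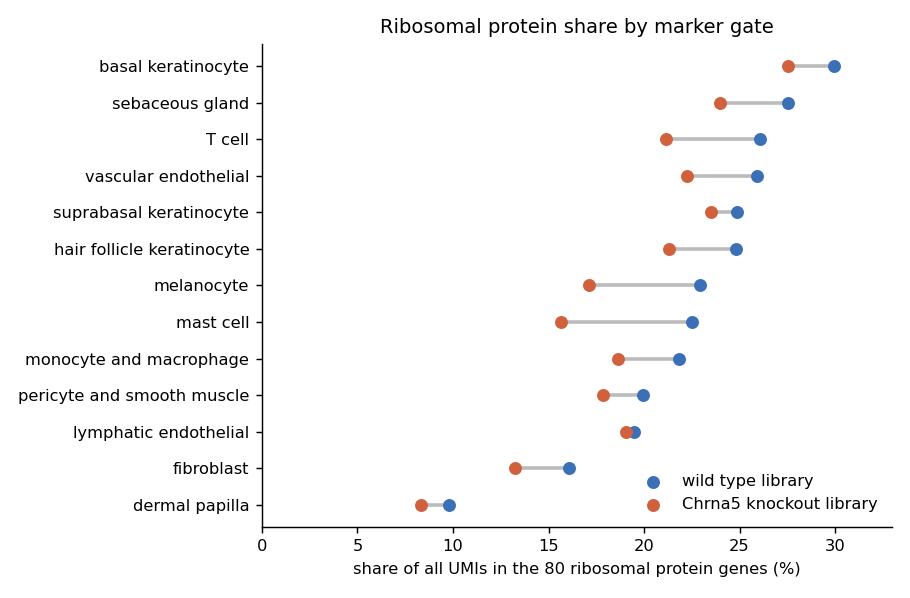
Share of all UMIs in the 80 ribosomal protein genes (x axis, percent) for the 13 cell types given by marker genes (y axis), with 1 blue point for the WT library and 1 red point for the KO library. The red point lies to the left of the blue one in all 13 rows, and the rows span 9.77% to 29.95% in WT.

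The KO share was below the WT share in all 13 types, by very different amounts. The ratio of KO over WT ran from 0.697 in mast-like cells (0.681 to 0.712) and 0.746 in melanocyte-like cells to 0.979 in lymphatic endothelial-like cells (0.970 to 0.988), with a median of 0.858. It was 0.918 in basal (0.918 to 0.919) and 0.944 in suprabasal keratinocyte-like cells (0.944 to 0.945). It was 0.824 (0.822 to 0.825) for fibroblast-like cells. For the monocyte and macrophage-like type it was 0.856 (0.854 to 0.858). The mitochondrial share was higher in KO in the same 13 types and the Malat1 level in 9 of them. With mitochondrial UMIs left out of the total, the KO share was lower in 13 types, with a median ratio of 0.860. Whether cell stress or the Malat1 level has a part in the lower member share was not tested. Lymphatic endothelial-like cells turned to 1.02 when the shares of single cells were averaged, and to 1.03 among cells with 2000 to 10000 UMIs.

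Within the types the difference depended on depth. Basal keratinocyte-like cells with 5000 to 10000 UMIs had median shares per cell of 26.9% in 702 WT and 20.8% in 283 KO cells, whereas those with 10000 to 20000 UMIs had 28.9% in both (443 and 359 cells). With 20000 UMIs or more the medians were 31.0% and 29.4%. The widest gap of this type lay under 2000 UMIs, at 22.6% and 10.6%, but rests on 28 WT and 10 KO cells. Suprabasal keratinocyte-like cells differed most between 5000 and 10000 UMIs, at 25.7% and 20.4% (97 and 42 cells). In fibroblast-like cells the medians were close between 2000 and 5000 UMIs (13.9% and 13.5%) and apart between 10000 and 20000 UMIs (16.4% and 12.4%). The KO median was the higher one in fibroblast-like cells under 2000 UMIs (15.4% and 19.5%, 27 and 30 cells) and over 20000 UMIs (17.8% and 18.7%, 15 and 6 cells). Monocyte and macrophage-like cells were lower in KO in all 5 depth ranges, with 20.5% and 17.0% between 5000 and 10000 UMIs.

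**Figure D2:**
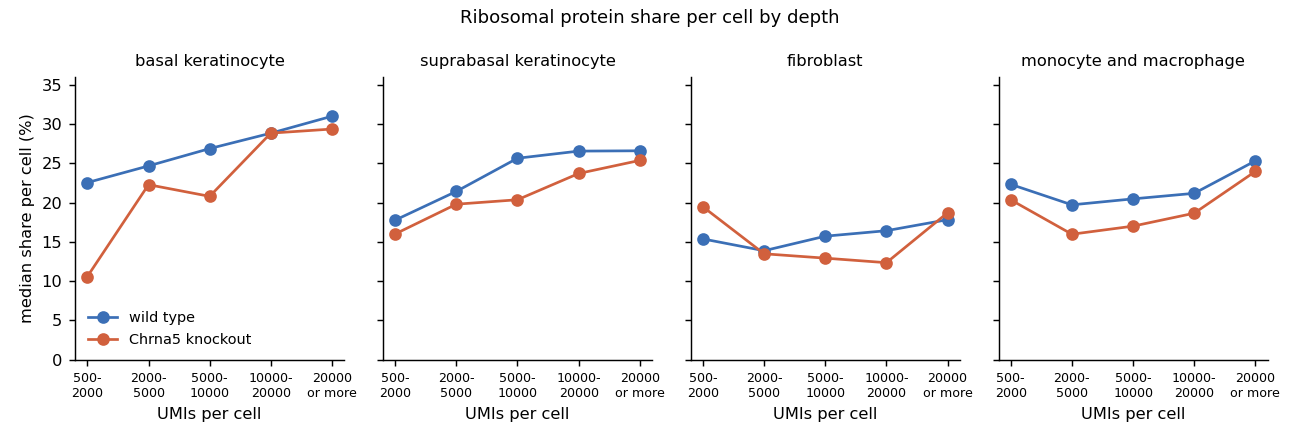
Median share of UMIs in ribosomal protein genes per cell (y axis, percent) in 5 ranges of UMIs per cell (x axis), for the 4 compared cell types, WT in blue and KO in red. The basal keratinocyte-like lines meet at 28.9% between 10000 and 20000 UMIs, and the fibroblast-like lines cross at both ends.

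The cells behind 1 type were not the same in both libraries. Cluster 3 held 62.9% of the WT fibroblast-like cells and had 22 KO cells in all, while cluster 2 held 47.5% of the KO ones. Basal keratinocyte-like cells lay mostly in cluster 1 in both libraries (54.6% and 42.5%), but cluster 4 held 13.1% of WT and 39.6% of KO cells. Among monocyte and macrophage-like cells, 10.5% of the WT ones lay in cluster 31, which carries neutrophil markers and has 9 KO cells. Of 8 neutrophil markers, 5, 7, 7 and 6 were higher in WT in basal keratinocyte-like, suprabasal keratinocyte-like, fibroblast-like, and monocyte and macrophage-like cells. Their summed level was 8296 CPM (UMIs per 1000000 UMIs) in WT and 474 CPM in KO basal keratinocyte-like cells, and 1414 and 55.2 CPM in the monocyte and macrophage-like ones. Nearly all of it was S100a8 and S100a9, which inflamed keratinocytes also make, except in KO monocyte and macrophage-like cells. There S100a8 had 18.5, S100a9 16.8 and Csf3r 19.2 CPM. Ly6g had 0 UMIs in both libraries in 3 of the 4 types and 1 WT UMI in the suprabasal type. The part of the neutrophil markers in the member shares was not tested. Of 26 clusters with at least 50 cells from each library, made without the member genes, the KO share was lower in 21 and higher in 5. In basal keratinocyte cluster 1, led by Nppc, Cxcl14 and Lhx2, shares were 27.8% and 20.5% (ratio 0.738). In cluster 4 of the same name they were 32.8% and 29.7% (0.906), and in its cycling cluster 11, led by histone genes, 29.9% and 29.3% (0.977). Each of the 3 clusters named suprabasal among these 26 lay nearer to WT, or above it, than the suprabasal type as a whole. Cluster 10, led by the wound genes Krt6b and Sprr2d, had a ratio of 0.983, cluster 12, led by Dapl1 and Krt10, 1.04, and cluster 20, led by the surface-layer genes Cnfn and Klk6, 1.03. The WT suprabasal keratinocyte-like cells lay in cluster 10 (27.3%) and the KO ones in cluster 12 (46.8%) more than in any other, and a further 10.5% of the WT ones lay in cluster 17, which has 0 KO cells. The other clusters with a higher KO share were sebaceous cluster 18 (1.03), Schwann cluster 22 (1.03) and cluster 25 (1.86), which had no name and was led by globin genes.

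With keratinocytes ordered from basal to suprabasal marker content, the share went up and then down. Basal and suprabasal keratinocyte-like cells with 5000 UMIs or more were ordered by how much of their basal and suprabasal marker UMIs was suprabasal. In WT the median share per cell was 27.3% where suprabasal markers held under 10%, 30.8% between 25% and 50%, 28.5% between 50% and 75%, and 19.4% at 90% or more. In KO it was 19.7%, 29.7%, 28.6% and 21.8% in the same ranges. KO cells were therefore lower at the basal end (380 WT and 176 KO cells), close to WT in the middle, and higher at the surface end (165 WT and 356 KO cells), where the ranges between the quartiles overlapped widely (13.4% to 26.1% in WT and 15.3% to 26.4% in KO). Leaving the marker UMIs themselves out of the total moved the pooled WT share from 27.4% to 27.6% at the basal end and from 19.7% to 20.5% at the surface end. Depth differed between the ranges as well, with median UMIs of 8285.5 in WT and 8166 in KO at the basal end. Between 25% and 50% the medians were 32792 and 23596.5 UMIs, and at 90% or more 29921 and 25545. The part of depth in the rise and fall of the share was not tested. Dividing cells did not stand out by a larger share. Among basal keratinocyte-like cells with 20000 to 40000 UMIs, those with 5 or more UMIs of 11 proliferation genes had medians of 31.3% in WT and 28.9% in KO, and those with none had 34.0% (29 cells) and 29.8% (14 cells). Between 5000 and 10000 UMIs the WT order was the other way, with 28.2% (21 cells) and 27.2% (233 cells).

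**Figure D3:**
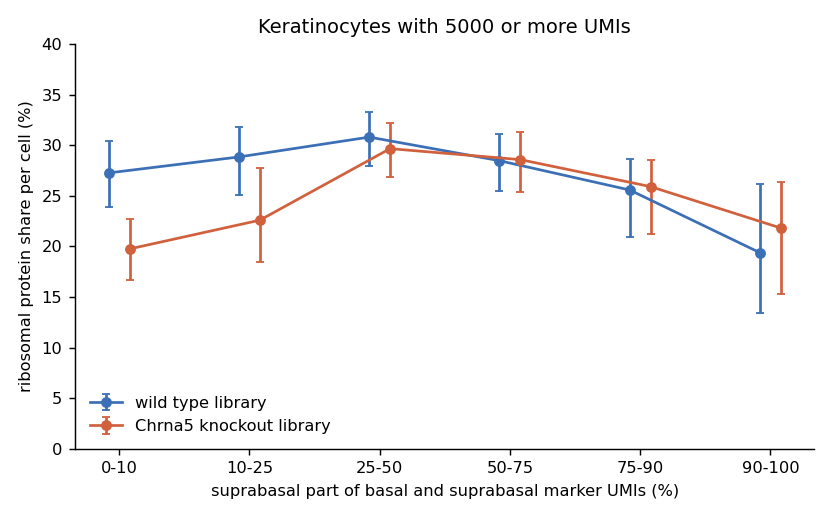
Share of UMIs in ribosomal protein genes per cell (y axis, percent) against the suprabasal part of the basal and suprabasal marker UMIs (x axis, 6 ranges), in keratinocytes with 5000 UMIs or more. Points are medians over cells and bars run from the lower to the upper quartile. WT (blue) starts at 27.3% and KO (red) at 19.7%, and the order is turned in the last range, at 19.4% and 21.8%.

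Levels of single members are given in CPM as well. A level counts here as lower or higher when it differed by 1.5-fold or more and its interval left out 1. Over all kept cells 77 of the 80 members had more than 5000 WT UMIs. They ranged in WT from Rpl13a at 194 CPM to Rpl13 at 6634 CPM, with a median of 3178 CPM in WT and 2822 CPM in KO. The median annotated transcript length of these 77 genes was 696 bases and did not go with level (rank correlation across genes -0.0631 in WT). All counts come from message ends, so levels of different genes also differ in how well each end is counted. Among the highest members in basal keratinocyte-like cells were Rpl13 (8183 and 7670 CPM in WT and KO), Rpl41 (7264 and 5841), Rps20 (6770 and 6190) and Rps24 (6695 and 6501). Rps29 led the monocyte and macrophage-like type (7952 and 7224 CPM) and Rps24 in WT fibroblast-like cells (4502 CPM). Copies of these genes are many in the genome, with 297 annotated copies named after 59 of the members, and reads of near-identical copies cannot be told apart by count.

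Most members were slightly lower in KO. Of 78 members with at least 20 UMIs, the KO over WT ratio was below 1 for 70 in basal keratinocyte-like, 55 in suprabasal keratinocyte-like, 75 in fibroblast-like, and 75 in monocyte and macrophage-like cells. Of all measured genes 44.1%, 49.7%, 40.3% and 46.8% were below 1 in the same types. Median log2 ratios of the members were -0.12, -0.06, -0.27 and -0.23, beside 0.07, 0.01, 0.10 and 0.04 over all measured genes. Few passed 1.5-fold. In basal keratinocyte-like cells 2 were lower (Rpl29 and Rpl39l, with 9.43% of all genes lower) and 0 higher (13.7% of all genes). In suprabasal keratinocyte-like cells 1 was lower (Rpl29, 12.2% of all genes) and 0 higher (11.7%). Fibroblast-like cells also had Rpl29 alone lower (6.56% of all genes) and 0 higher (13.6%), and monocyte and macrophage-like cells had Rpl29 lower (8.71%) and Rpl39l higher (10.5%). In all 4 types at once, 66 of 8394 genes (0.786%) were lower by this measure, 1 of them a member, Rpl29. Of the 104 genes (1.24%) higher in all 4, 0 were members. At or under 0.8 times the WT level, with the interval below 1, were 5 members in basal keratinocyte-like (17.3% of all genes), 4 in suprabasal keratinocyte-like (19.6%), 26 in fibroblast-like (11.8%), and 18 in monocyte and macrophage-like cells (14.6%).

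**Figure D4:**
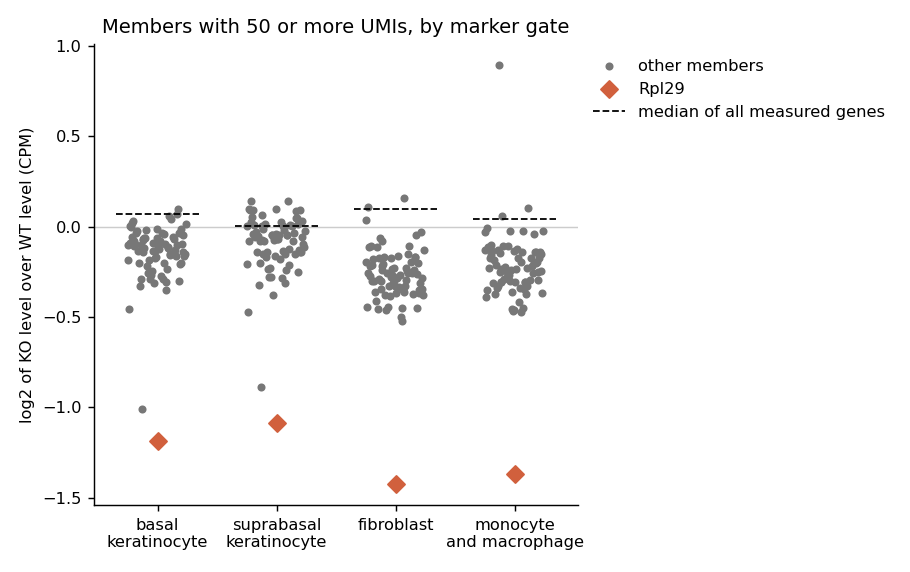
Log2 of the KO level over the WT level (y axis) for each member with 50 or more UMIs in the 4 compared cell types (x axis), with Rpl29 as a red diamond, the other members as grey points spread sideways for display, and the median of all measured genes as a dashed line. Most grey points lie between -0.5 and 0.1, and Rpl29 lies near or below -1.1 in each type.

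Rpl29 is a small lysine-rich protein of the large subunit. Its gene (ENSMUSG00000048758, mm10 chromosome 9, 106429454 to 106431568, plus strand, 3 exons) had 260577 UMIs in WT and 87866 in KO. Among members with at least 50 UMIs in both libraries together, it had the lowest KO over WT ratio in all 13 cell types. Its level was 2157 CPM (2144 to 2170) in WT and 948 CPM (937 to 959) in KO basal keratinocyte-like cells, a ratio of 0.439 (0.434 to 0.445). Suprabasal keratinocyte-like cells had 1891 and 889 CPM (0.470), fibroblast-like cells 956 and 356 CPM (0.372), and the monocyte and macrophage-like type 1406 and 544 CPM (0.387). In the smaller types the ratio ran from 0.253 in mast-like cells (0.156 to 0.393, 132 and 24 UMIs) to 0.458 in pericyte and smooth muscle-like cells. The highest KO level of any type, 948 CPM, was below the WT level of every type but the dermal papilla-like cells, which had 530 and 197 CPM. Fewer cells held any Rpl29 UMI in KO: 85.9% (84.4 to 87.4) against 97.5% (96.7 to 98.1) of fibroblast-like cells, whose median depths were 6940 and 7663 UMIs.

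**Figure D5:**
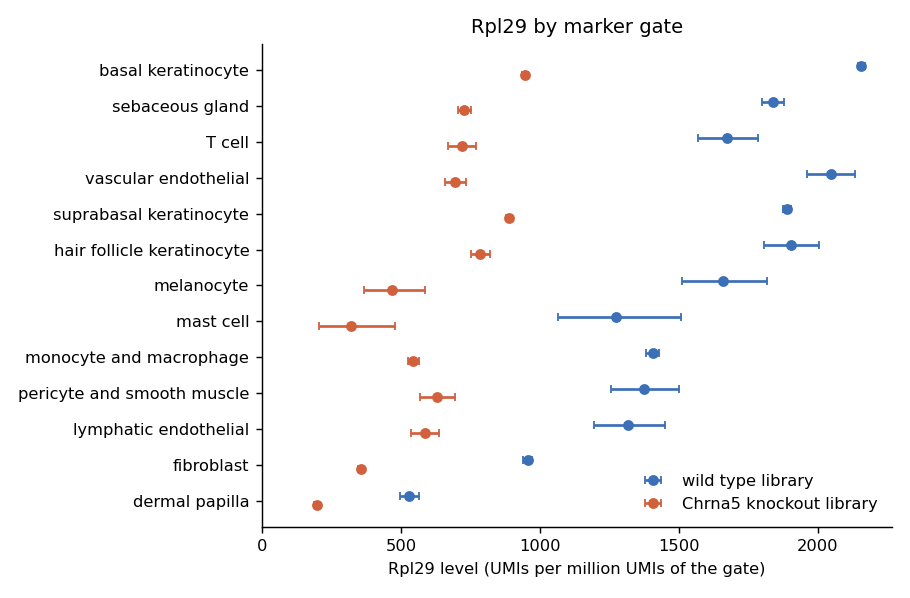
Rpl29 level in CPM (x axis) for the 13 cell types (y axis), WT in blue and KO in red, with exact 95% Poisson intervals of counting error as bars. The KO point lies left of the WT point in every row and the bars do not overlap.

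Rpl29 was also lower against the other members. As a part of member UMIs, Rpl29 in KO stood at 0.363 to 0.529 times its WT part over the 13 types. In the 26 clusters this ratio ran from 0.332 to 0.583 with a median of 0.467, and the level scaled to all UMIs was lower in 25. The exception was cluster 25 of globin-led cells, at 1.09, where its part of member UMIs was 0.583 times that in WT. Scaled to member UMIs, Rpl29 was the 1 member lower by 1.5-fold in each of the 4 compared types (beside 6.67%, 10.3%, 3.31% and 4.51% of all genes). Higher by 1.5-fold on this scale were 0, 0, 0 and 1 members (Rpl39l), beside 18.4%, 14.3%, 28.1% and 21.5% of all genes. At the lower fold, Rpl38 joined Rpl29 in basal and suprabasal keratinocyte-like cells (12.2% and 15.7% of all genes lower). Rpl13a and Rps27l were higher at that fold in fibroblast-like cells (46.9% of all genes), and Rps12 and Rpl39l in the monocyte and macrophage-like type (33.9%). The annotation names 3 processed copies of Rpl29. Its promoter is missing from the sequence table.

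Rpl29 lies 51.4 Mb from Chrna5 on chromosome 9, which holds 6 other members. Rps25, Rplp1, Rpl4, Rps27l, Rpsa and Rpl14 had KO over WT ratios between 0.732 and 1.11 in the 4 types. Rpl4 was at 1.07, 1.03, 0.970 and 0.908 in basal, suprabasal, fibroblast-like, and monocyte and macrophage-like cells. Rpl14 was among the lower members, at 0.809, 0.806, 0.777 and 0.732. Whether position on the chromosome has a part in the Rpl29 level was not tested. Genotype and library cannot be told apart here.

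Behind Rpl29 the lower end held many large subunit genes, which are 49 of the 80 members. The upper end in keratinocytes also held many of them. Rpl38, whose protein sits at the surface of the large subunit and whose loss in mice alters the axial skeleton, stood at 0.722 to 0.765 times the WT level in the 4 types (2953 and 2155 CPM in basal keratinocyte-like cells). It was nearer to WT in pericyte and smooth muscle-like cells (0.913) and farther from it in melanocyte-like cells (0.625). Rpl36a (0.729 to 0.798) and Rpl41, whose product is a peptide of very few residues (0.770 to 0.849), were lower in all 4. Rpl10a was close to the other members in keratinocytes (0.868 and 0.910) and next to lowest in fibroblast-like (0.697) and in monocyte and macrophage-like cells (0.720). Rpl36 likewise had 0.818 and 0.822 in keratinocytes but 0.707 in fibroblast-like cells. In monocyte and macrophage-like cells the lower end also held Rpl8 (0.723), Rpl18 (0.729) and Rps19 (0.748), which stood at 0.889, 0.887 and 0.974 in basal keratinocyte-like cells.

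The upper end differed between keratinocytes and the other types. Rplp0, the base of the stalk that binds translation factors, was at 1.04 in basal and 1.11 in suprabasal keratinocyte-like cells (5001 and 5528 CPM) but at 0.844 in fibroblast-like and 0.774 in monocyte and macrophage-like cells. Its partner Rplp1 had 0.957, 0.946, 0.865 and 1.04 in the same order. Rps12 was at 1.03, 1.00, 0.928 and 1.07. Rpl12 and Rpl9 were between 1.02 and 1.06 in both kinds of keratinocyte and between 0.886 and 0.973 in the other 2 types. Rpl13a, the least abundant of the 77, was at 1.00, 1.07, 1.08 and 0.996, with 239 CPM in WT basal keratinocyte-like cells. Rpl35a, whose start site is printed above, had 1.01 and 0.985 in keratinocytes, and Rpl38, with the same hexamer, 0.730 and 0.722. Over the 19 members with CTTTCC near the start, the median ratio in the 4 types was 0.911, 0.958, 0.811 and 0.826. For 39 measured members with a window but no hexamer it was 0.933, 0.955, 0.838 and 0.873.

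The make-up of the ribosomal protein messages was similar between libraries and differed modestly between cell types. Within a type the rank correlation of member parts between WT and KO lay between 0.927 and 0.985 across genes, as a description. For 65 members with at least 50 UMIs in every type and library, the highest type's part of member UMIs was about 1.5 times the lowest's at the median, taking the smaller of both libraries' values. For 8 it was 2-fold or more. Rps29 held 3.65% of WT member UMIs in the monocyte and macrophage-like type and 1.53% in dermal papilla-like cells, with 3.87% and 1.09% in KO. Rpl10a, Rpl39, Rps26, Rps4x and Rpl36a were also lowest in dermal papilla-like cells in both libraries. Rps26, for example, held 0.576% and 0.553% there and 1.32% and 1.45% in suprabasal keratinocyte-like cells. Rpl24 went the other way, with 2.57% and 2.43% in dermal papilla-like and 1.12% and 1.02% in suprabasal keratinocyte-like cells. Rps27 was lowest in sebaceous gland-like cells (1.20% and 1.16%). Ordering the 13 types by a member's part gave a rank correlation between WT and KO above 0 for 65 of 65 members, with a median of 0.830. The dermal papilla-like cells were the deepest in KO, with a median of 50740 UMIs, and the part of depth was not tested.

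The 4 symbols that end in l stand for copies with their own expression. Rpl10l, a copy of the X-linked Rpl10 known for its role in the testis, had 0 UMIs in both libraries, which allows at most 0.0253 CPM in WT and 0.0301 CPM in KO. Rpl3l, the striated-muscle copy of Rpl3, had 23 UMIs in WT and 24 in KO. Rps27l, a p53 target as well as a ribosomal protein, was found in all 13 types, with 431 (WT) and 377 (KO) CPM over all cells. Its ratio was 0.785 in basal keratinocyte-like (472 and 370 CPM), 1.11 in fibroblast-like (293 and 327 CPM) and 1.37 in T-like cells (1.13 to 1.66, 263 and 360 CPM). Rpl39l, a copy of Rpl39, was a mesenchymal message in this skin. It had 50.4 CPM (47.0 to 54.1) in WT and 48.3 CPM (44.9 to 52.0) in KO fibroblast-like cells, 49.8 and 67.7 CPM where pericyte and smooth muscle genes were on, and 33.9 and 22.4 CPM in dermal papilla-like cells. In basal keratinocyte-like cells it had 39 UMIs in WT and 11 in KO, or 0.770 and 0.382 CPM. Cells with an Rpl39l UMI were 28.0% of WT and 24.9% of KO fibroblast-like cells, and 1.46% and 0.845% of basal keratinocyte-like cells, whose median depths of 13331 and 15749.5 UMIs were higher than those of fibroblast-like cells. The parent gene Rpl39 ran at 4540 and 4243 CPM in basal keratinocyte-like and at 2144 and 1682 CPM in fibroblast-like cells.

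For ribosome genes whose symbols fall outside the pattern, Rps3a1 (4796 and 4812 CPM in basal keratinocyte-like cells) and 5 others, among them Fau and Rack1, were measured, and 0 of 6 passed 1.5-fold in any of the 4 types. Their median log2 ratios were -0.03, 0.01, -0.21 and -0.10. Over all kept cells, Rpl36al (1.05) and Rps27rt (1.08) were above WT, and 7 annotated processed copies with UMIs lay between 0.440 (Rpl13a-ps1, 46 and 17 UMIs) and 0.936 (Rpl10-ps3).

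Other genes of protein synthesis were counted from lists, beside 9.43%, 12.2%, 6.56% and 8.71% of all genes lower in basal keratinocyte-like, suprabasal keratinocyte-like, fibroblast-like, and monocyte and macrophage-like cells. Mitochondrial ribosomal proteins, which build the separate ribosome of the mitochondrion, were lower for 18 of 78 in basal keratinocyte-like, 3 of 78 in suprabasal keratinocyte-like, 2 of 77 in fibroblast-like, and 13 of 77 in monocyte and macrophage-like cells, with medians of -0.37, -0.23, -0.11 and -0.38. Read against those percentages, the counts were above the share of all genes in the basal and in the monocyte and macrophage-like type and below it in the other 2. Mrpl52, their most abundant member, stood at 284 and 141 CPM in the monocyte and macrophage-like type, and Mrps6 was higher in 3 types (1.52 to 1.57). Elongation and release factors had 1 of 11 lower in basal keratinocyte-like cells (Eif5a2, 0.587) and 0 in the others, with Eef1a1 between 0.927 and 1.01. Among 37 initiation factors, the helicase Eif4a2 passed the fold in all 4 types (99.5 and 183 CPM in basal keratinocyte-like cells, 1.84), and the medians lay between -0.01 and 0.06. Eif2b3 and Eif3i were lower in the monocyte and macrophage-like type. Other messages with a 5′ TOP tract had 0 of 21 higher or lower in 3 types and Vim lower in suprabasal keratinocyte-like cells (0.436). Their most abundant member Tpt1 was at 1.06 to 1.24. Ribosome biogenesis genes had medians of 0.24, 0.09, 0.06 and 0.03, with 0, 1, 0 and 2 of 58 lower and 1 higher (Rrp1b in suprabasal keratinocyte-like cells). Ribosome stalling and quality control genes had medians between 0.11 and 0.13, with 1 of 11 lower (Ccdc124, 0.659) and 1 higher (Pelo), both in monocyte and macrophage-like cells.

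Stress and growth regulators were counted in the same way, beside 13.7%, 11.7%, 13.6% and 10.5% of all genes higher in the 4 types. Lower in these types were 9.43%, 12.2%, 6.56% and 8.71% of all genes. Of the integrated stress response genes 8 of 18, 4 of 18, 5 of 18 and 6 of 17 were higher in basal, suprabasal, fibroblast-like, and monocyte and macrophage-like cells, and 1 was lower in each. Atf3 was at 828 and 1756 CPM (2.12) and Ppp1r15a, which restarts translation after stress, at 278 and 658 CPM (2.37) in basal keratinocyte-like cells. Atf4 was at 648 and 1074 CPM (1.66) in the monocyte and macrophage-like type. Of the p53 targets 5 of 18, 4 of 18, 8 of 17 and 3 of 15 were higher, and 1, 0, 1 and 1 lower. Bbc3 was at 2.70 in basal keratinocyte-like cells and Cdkn1a at 1.74 in fibroblast-like cells. The lower ones were Phlda3 in basal keratinocyte-like cells and Perp in fibroblast-like and in monocyte and macrophage-like cells. Phlda3 was among the higher ones in fibroblast-like cells. Among mTORC1, Myc and TOP regulators 3 of 27, 3 of 26, 3 of 26 and 2 of 26 were higher, with Myc at 3.71 in suprabasal keratinocyte-like cells and Mtor at 0.471 in monocyte and macrophage-like cells. Proliferation genes were lower for 5, 10, 3 and 5 of 11, with median log2 ratios of -0.57, -1.35, -0.06 and -0.65, while Pcna was at 1.21 to 1.96. The summed level of the proliferation genes in KO was 0.736, 0.596, 1.13 and 1.47 times that in WT, so above WT in fibroblast-like and in monocyte and macrophage-like cells.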

How the data were processed

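Single-cell 3-prime messages of 1 WT and 1 Chrna5 KO library were measured. Per the file headers, the authors' matrices hold raw counts of UMIs for every gene and barcode. The submitters' processing notes list Cell Ranger 3.0.2, Seurat 3.0 and mm10, and the matrix header gives software 3.1.0. Every barcode holds 500 UMIs or more, and how barcodes were filtered is not given. Cells were kept with 200 or more genes and no more than 10% of UMIs from mitochondrial genes. A marker counted as on in a cell with 2 or more UMIs and a level at or above its mean over kept cells. A cell took the type with most markers on, at least 3, with a margin of 2 over other lineages. That scoring rule was chosen from the data, and the members, markers and lists were chosen with earlier results of these data known. Clusters were made without member and mitochondrial genes (scanpy 1.11.5, leidenalg 0.10.2, 2000 variable genes per library, 30 components, 15 neighbours, resolution 1), giving 40, of which 35 were named. Doublets were kept, and an alternative left out the highest scores (1623 WT and 891 KO cells).

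Sums of UMIs were formed for each type in each library. Cells are not replicates, so no test was run. Shares have exact Clopper-Pearson, levels exact Poisson, and ratios exact conditional intervals at 95% (scipy 1.17.1), which cover counting error only. Library totals were 147260653 WT and 123839924 KO UMIs. Genes needed 20 UMIs in both libraries together to be measured. Named members are, in each compared type, the 5 highest, the 8 largest and the 8 smallest ratios among members with 50 UMIs, the 8 whose part of member UMIs differs most between types, symbols ending in l, and from each other list the most abundant gene and the extreme ratios. Some are left out for length, and some items are not reported here. Rps25 and Rpsa are named for their chromosome, Rplp2 by the selection of members, and Eif3i, Fau, Rack1 and other list genes outside the rule after their values were seen. The interval calculation was tested on simulated data. Positions come from GENCODE M21 and start sites from RefSeq (GRCm38.p6). Alternatives changed the denominator, filters, depth, gates, scaling and fold.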

Additional observations from a re-analysis of the deposited data

Results flagged for a closer look

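Rpl39l lay on opposite sides of 1 in 2 of the compared types. Its KO over WT ratio was 0.496 (0.229 to 0.988, 39 and 11 UMIs) in basal keratinocyte-like cells and 1.86 (1.05 to 3.31, 25 and 29 UMIs) in monocyte and macrophage-like cells. The difference between the types was not tested. Both rest on few UMIs. The first was 0.734 without the highest doublet scores and the second 1.23 among cells with 2000 to 10000 UMIs, and neither then passed the threshold.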

How the results depend on the processing

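No paired analysis was possible because each genotype has 1 library. The KO over WT ratio of the member share stayed below 1 over all cells and in the 4 compared types under every alternative tried. Over all cells, basal, suprabasal, fibroblast-like, and monocyte and macrophage-like cells it left the narrow counting interval of the reported value as follows. Without mitochondrial UMIs it was 0.854, 0.924, 0.952 and, in fibroblast-like cells, 0.826. As a mean of per-cell shares it was 0.854, 0.905, 0.978, 0.855 and 0.863. Among cells with 2000 to 10000 UMIs it was 0.798, 0.816, 0.842, 0.851 and 0.860. Without the highest doublet scores it was 0.848, 0.920, 0.933, 0.831 and 0.866, and with 4 ribosome genes outside the symbol pattern added 0.852, 0.921, 0.947, 0.827 and 0.858. By clusters it was 0.940, 0.978, 0.828 and 0.829 in the 4 types, and by a stricter gate 0.914 and 0.951 in keratinocytes and 0.861 in monocyte and macrophage-like cells. With at most 5% mitochondrial UMIs it was 0.849 over all cells, 0.919 in basal and 0.852 in monocyte and macrophage-like cells, and with at least 2000 UMIs 0.847 over all cells and 0.943 in suprabasal cells.

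Counts of members past the fold are small and moved easily. At the lower fold 5, 4, 26 and 18 members were lower in the 4 types (17.3%, 19.6%, 11.8% and 14.6% of all genes). For parts of member UMIs at that fold, 2 were lower in basal and 2 in suprabasal cells (12.2% and 15.7% of all genes). Higher were 2 in fibroblast-like and 2 in monocyte and macrophage-like cells (46.9% and 33.9% of all genes). The count lower in basal cells was 1 with at most 5% mitochondrial UMIs, with 2000 to 10000 UMIs and without doublets (9.52%, 10.1% and 9.62% of all genes). In suprabasal cells it was 2 with median-ratio scaling and without doublets (12.6% and 12.7% of all genes). With no UMI minimum 1 member (Rpl3l) was higher there (8.91% of all genes). Median-ratio scaling gave 3 lower in fibroblast-like cells (8.66% of all genes). In monocyte and macrophage-like cells clusters gave 2 lower (14.7% of all genes). There 0 were higher by clusters, with 2000 to 10000 UMIs and without doublets (10.2%, 11.1% and 10.9% of all genes). For parts of member UMIs, clusters gave 2 lower in basal cells, and 0 were higher in monocyte and macrophage-like cells by clusters and with 2000 to 10000 UMIs. The share of all genes was not counted for these last settings. Rpl29 stayed between 0.350 and 0.483 times WT in the 4 types under all alternatives for levels, whereas Rpl39l in basal cells turned to 1.33 with 2000 to 10000 UMIs.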
